A study of Mus musculus with 47 samples.

Results

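White adipose tissue of tumour-bearing mice was compared between animals given 3P10, an antibody against the receptor GFRAL, and animals given an IgG1 control antibody. The 10 libraries described here, 5 per antibody, are all the white fat libraries labelled with a tumour and an antibody, out of 47 libraries from brown fat, white fat and gastrocnemius muscle. All of these C57Bl6 mice had been inoculated with HT1080 cells, a human fibrosarcoma line, and both antibodies were given weekly, 3 mg/kg a dose, starting with the inoculation, until tissue was taken on day 21. The labels give neither the depot the white fat came from nor the immune status of the mice that carried human cells. Values of 5 white fat libraries from mice without a tumour, labelled NTB, for which the labels name no antibody, are set beside them. The labels call the libraries separate samples and do not say that each came from its own mouse, so the p-values measure the spread between these samples. Reads per gene had been counted for 24391 gene symbols, and the 14402 with enough reads were tested.

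GDF15 is a stress-induced circulating factor that many tumours raise. GDF15 lowers food intake and body weight through GFRAL, a receptor of hindbrain neurons that needs RET, a receptor kinase, to pass the signal on. White fat stores triglyceride, releases it through lipases when food is scarce or sympathetic nerves fire, and changes its transcripts with feeding, with glucocorticoid hormones and with the circadian clock. Beside fat cells it holds preadipocytes and other fibroblasts, which lay down the collagen matrix, and macrophages and dendritic cells.

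White fat libraries held 25.1 to 80.7 M counts in IgG1, 18.6 to 29.2 M in 3P10 and 22.4 to 34.4 M in NTB (M, mega). Levels are given as CPM, the reads per M reads of the library after TMM scaling. A gene without reads in a library could lie at up to 3 reads there, between 0.0395 and 0.161 CPM, for counting error only. IgG1 replicates 2 and 4 stood apart from the other 13 libraries. On the first principal component, which held 33.7% of the variance, they lay at 76.7 and 93.2, IgG1 replicate 5 lay at 30.0 and the others lay at -2.03 or lower. The lowest were 3P10 replicates 2 and 3, at -41.3 and -41.4. Summed over 12 markers of brown fat cells, both held more than any other library, 6056 and 6247 CPM, where the other 13 held 304 to 1941 CPM. IgG1 replicate 4 also held 1119 CPM of 15 keratinocyte and skin markers and IgG1 replicate 2 held 118 CPM, against 22.4 to 79.9 CPM elsewhere. Of 12 markers of mammary and luminal epithelium, IgG1 replicates 2 and 4 held 253 and 357 CPM, against 3.44 to 73.2 CPM elsewhere. The deposited column of IgG1 replicate 4 also carries a sample number far outside the run of numbers of the other white fat and muscle columns, and whether it was sequenced apart from them is not given in the sources used here. Fat cell markers were high in every library: 10 of them summed to 44778 to 56637 CPM in IgG1, 39478 to 46387 CPM in 3P10 and 39116 to 47946 CPM in NTB. Most of these genes are also active in brown fat cells, so the sum does not tell white from brown fat, and leptin, more a white fat product, was lowest in IgG1 replicates 2 and 4, at 155 and 60.2 CPM. Of 12 epididymis and testis markers 9 had no read in any of the 15 libraries. Skeletal muscle markers, 15 genes, summed highest in 3P10 replicates 2 and 3, at 4661 and 3623 CPM, against 1175 to 3020 CPM elsewhere. All 15 had a positive log2 fold change in 3P10 against IgG1, and 0 passed by edgeR. The part of muscle in other values was not tested. In tissue RNA such as this, fewer cells of a type and less RNA per cell cannot be told apart.

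**Figure D1:**
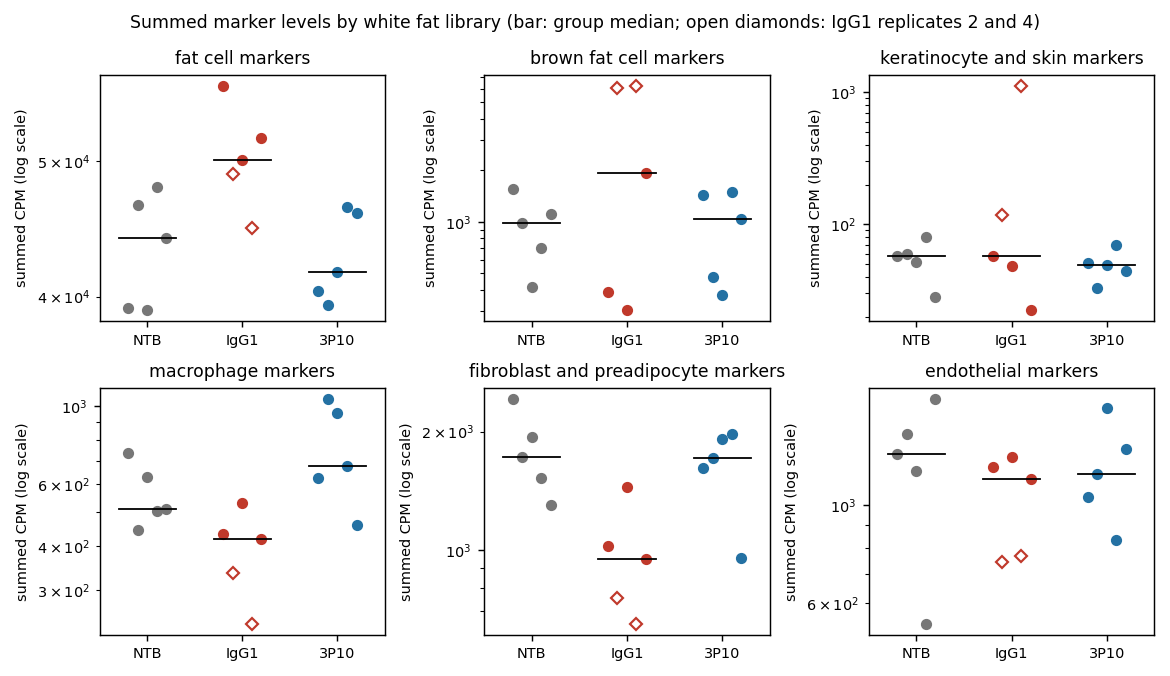
Summed CPM (log scale) of 6 marker lists in each white fat library, 5 per group, with a bar at the group median and open diamonds for IgG1 replicates 2 and 4. Both diamonds lie above all other libraries for brown fat cell markers, IgG1 replicate 4 reaches 1119 CPM of keratinocyte and skin markers, and both lie lowest for macrophage and fibroblast markers.

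The receptor that 3P10 binds was all but unread in white fat. Gfral had 1 read over the 15 libraries, in 3P10 replicate 3, and its ligand Gdf15 had 49 reads over the IgG1 libraries, 59 over the 3P10 libraries and 60 over the NTB libraries. Gdf15 gave a log2 fold change of 0.57 in 3P10 against IgG1 (SE 0.54, adjusted p = 0.508), on few reads. Ret, which encodes the signalling partner of GFRAL and of the receptors for GDNF-family ligands, stood at 24.3, 3.78, 39.0, 3.05 and 7.31 CPM in IgG1 replicates 1 to 5 and at 29.2, 40.1, 49.0, 13.3 and 15.2 CPM in 3P10. The groups overlapped, and the difference of 0.93 did not pass (SE 0.60, adjusted p = 0.322). IgG1 replicates 2 and 4 held the lowest Ret values, and without them the difference was 0.32. Of 7 tested genes for GDF15 and GDNF-family signalling 0 passed at an adjusted p under 0.05 by edgeR, with a median log2 fold change of 0.37, or 0.38 without IgG1 replicates 2 and 4.

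At an adjusted p under 0.05 (edgeR quasi-likelihood test, Benjamini-Hochberg over all genes tested), 1068 genes differed between 3P10 and IgG1, 7.42% of those tested. Of these, 570 rose in 3P10, 3.96% of genes tested, and 498 fell, 3.46%. At least 2-fold changes made up 278 of the rises and 116 of the falls. The 5 libraries of one group lay wholly above those of the other for 557 of the called genes, and for 814 of all genes tested, 5.65%, with 3P10 above in 2.92% and below in 2.73%. Beside NTB, IgG1 differed in 1245 genes, 8.64%, with 4.09% higher and 4.55% lower, while 3P10 against NTB gave 0 genes by edgeR at a smallest adjusted p of 0.403, with 542 genes at an unadjusted p under 0.05. These 3 comparisons share libraries, so their values are given side by side and no agreement between them is counted. A gene that did not pass in 3P10 against NTB is not thereby shown to be at the NTB level. IgG1 against NTB was not refitted without IgG1 replicates 2 and 4, here or below.

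The number of genes called moved strongly with single libraries. Leaving out IgG1 replicate 2 gave 127 genes, IgG1 replicate 4 gave 175 and IgG1 replicate 5 gave 389. Of the 3P10 libraries, replicate 3 left out gave 158, replicate 1 gave 321, replicate 4 gave 554 and replicate 2 gave 574. Dropping NTB replicate 2 gave 649. More genes passed when IgG1 replicate 1 or 3 was dropped, 1818 and 2304. With IgG1 replicates 2 and 4 both left out, 15 genes passed, of which 4 rose and 11 fell, while 2339 lay at an unadjusted p under 0.05. Of the 1068 genes 1064 kept their sign and 14 their call, where 81.5% of all genes tested kept their sign. Both fits share the 3P10 libraries and the remaining IgG1 libraries, and the 1068 were picked in the larger fit. Their kept signs are therefore not separate support. The median size of the 1068 went from 0.84 to 0.65 on the log2 scale at a median SE of 0.20 in both fits. Other fits gave other counts: 105 genes with the NTB libraries kept out of the estimate of the spread, 2282 by DESeq2 and 1836 by limma voom with a weight for each library. By edgeR 0 genes passed with the replicate number as a block (3286 at an unadjusted p under 0.05), and 0 with both libraries left out and only the IgG1 and 3P10 groups in the fit (1848 at an unadjusted p under 0.05). Each list below is therefore given with and without both libraries, and its counts are to be read against the 3.96% of all genes tested that rose and the 3.46% that fell. Where a call or a count moved with 1 library, that library is named by its group and replicate number, and the adjusted p given with it is the highest over the fits with 1 library left out.

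**Figure D2:**
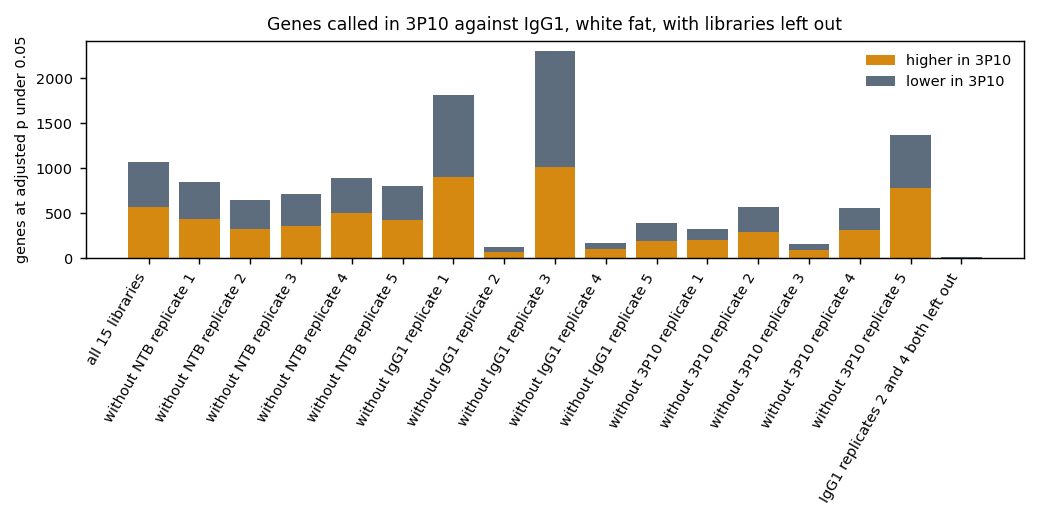
Number of genes at an adjusted p under 0.05 in 3P10 against IgG1 (bars from 0, split into genes higher and lower in 3P10) with all 15 white fat libraries, with each left out in turn, and with IgG1 replicates 2 and 4 both left out. The bars run from 2304 genes without IgG1 replicate 3 to 15 genes without IgG1 replicates 2 and 4.

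**Figure D3:**
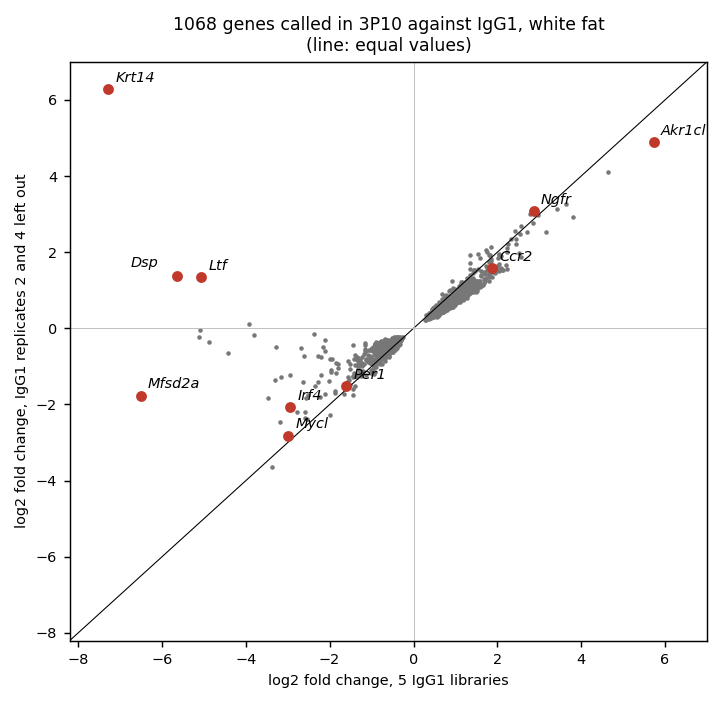
Log2 fold change of the 1068 called genes in 3P10 against IgG1 with all 5 IgG1 libraries (horizontal axis) and with IgG1 replicates 2 and 4 left out (vertical axis), with a line at equal values. Most points lie near the line or between it and 0, and Krt14, Dsp and Ltf are negative on the horizontal axis and positive on the vertical one.

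Among 73 called genes named by a rule on size, adjusted p and lists, 13 kept their call whichever library was left out. The largest rises and falls were taken only from genes whose groups did not overlap, so that trait was fixed by the choice. Of the genes below, this holds for Ngfr, Cx3cr1, Akr1cl, Spon2, Mycl, Irf4, Ripk4, Ttc36, Ciart and Ccl8. Among the rises was Ngfr, which encodes the p75 neurotrophin receptor. Ngfr stood at 0.797, 0.644, 0.844, 1.46 and 0.681 CPM in IgG1 replicates 1 to 5 and at 3.2, 8.81, 9.43, 3.06 and 8.52 CPM in 3P10 replicates 1 to 5. Every 3P10 library lay above every IgG1 library, and the 3P10 and NTB ranges overlapped, with NTB at 5.92 to 8.21 CPM. The log2 fold change was 2.86 (SE 0.35, adjusted p = 0.00602), and 3.09 with IgG1 replicates 2 and 4 left out (adjusted p = 0.0411). Ccr2, the receptor through which monocytes are drawn into tissue, read 13.2, 8.29, 8.44, 4.15 and 11.7 CPM in IgG1 and 35, 47.2, 30.9, 28.2 and 25 CPM in 3P10. Its groups did not overlap either, and 3P10 also lay wholly above NTB, at 15.4 to 23.9 CPM, though 3P10 against NTB did not pass. Ccr2 rose by 1.87 (SE 0.26, adjusted p = 0.00602) and by 1.58 without both libraries (adjusted p = 0.0416). Cx3cr1, the fractalkine receptor of monocytes and macrophages, went from 2.95, 2.17, 1.34, 1.13 and 2.38 CPM in IgG1 to 8.83, 8.93, 6.87, 10.1 and 5.45 CPM in 3P10. No 3P10 library fell into the IgG1 range, and Cx3cr1 rose by 2.02 (SE 0.29, adjusted p = 0.00602; 1.85 without both libraries, adjusted p = 0.0433).

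Akr1cl, an aldo-keto reductase gene, had 0.478, 0, 0.0938, 0.0132 and 0.151 CPM in IgG1 and 8.35, 8.25, 10.8, 1.40 and 6.45 CPM in 3P10. All IgG1 libraries lay below 3P10, 3P10 replicate 4 was the lowest of its group, and IgG1 replicates 2, 3 and 4 were at 0 or near the level of 3 reads. The fitted rise was 5.72 (SE 0.92, adjusted p = 0.00707), and NTB lay between, at 0.526 to 4.44 CPM. Aldo-keto reductase genes are a family of close copies, and how reads shared by copies were counted is not given in the sources used here. Spon2, a secreted matrix protein gene, stood at 3.87, 1.09, 3.31, 0.527 and 2.46 CPM in IgG1 and 8.70, 8.93, 13.9, 19.6 and 12.1 CPM in 3P10, without overlap. It rose by 2.51 (SE 0.46, adjusted p = 0.0135), and by 1.97 without IgG1 replicates 2 and 4, which were the lowest of their group (adjusted p = 0.0558).

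Among the falls was Mycl, a transcription factor gene of the Myc family. Mycl read 36.4, 77.2, 89.6, 67.3 and 38.4 CPM in IgG1 replicates 1 to 5, 2.91, 11.5, 4.66, 14.1 and 6.0 CPM in 3P10 and 3.02 to 9.18 CPM in NTB. The lowest IgG1 library was above the highest library of both other groups. Mycl fell by 2.99 on the log2 scale (SE 0.43, adjusted p = 0.00602; without both libraries -2.82, adjusted p = 0.0433). Irf4, a transcription factor gene that in fat cells responds to fasting and raises lipase genes, gave 16.4, 90.4, 93.5, 178 and 19.6 CPM in IgG1 and 8.42, 10.2, 9.08, 12.8 and 11.1 CPM in 3P10. Its groups did not overlap, but IgG1 itself was split, with replicates 1 and 5 nearest to 3P10 and replicates 2, 3 and 4 far above them. Irf4 fell by 2.95 (SE 0.50, adjusted p = 0.0102), and its value was -2.07 without IgG1 replicates 2 and 4 (adjusted p = 0.0694). Ripk4, a kinase gene of epithelia, and Ttc36, which encodes a tetratricopeptide repeat protein, fell by 2.23 and 1.86, also without overlap and also in every fit with 1 library left out. Their adjusted p without both IgG1 libraries was 0.0848 and 0.0605.

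**Figure D4:**
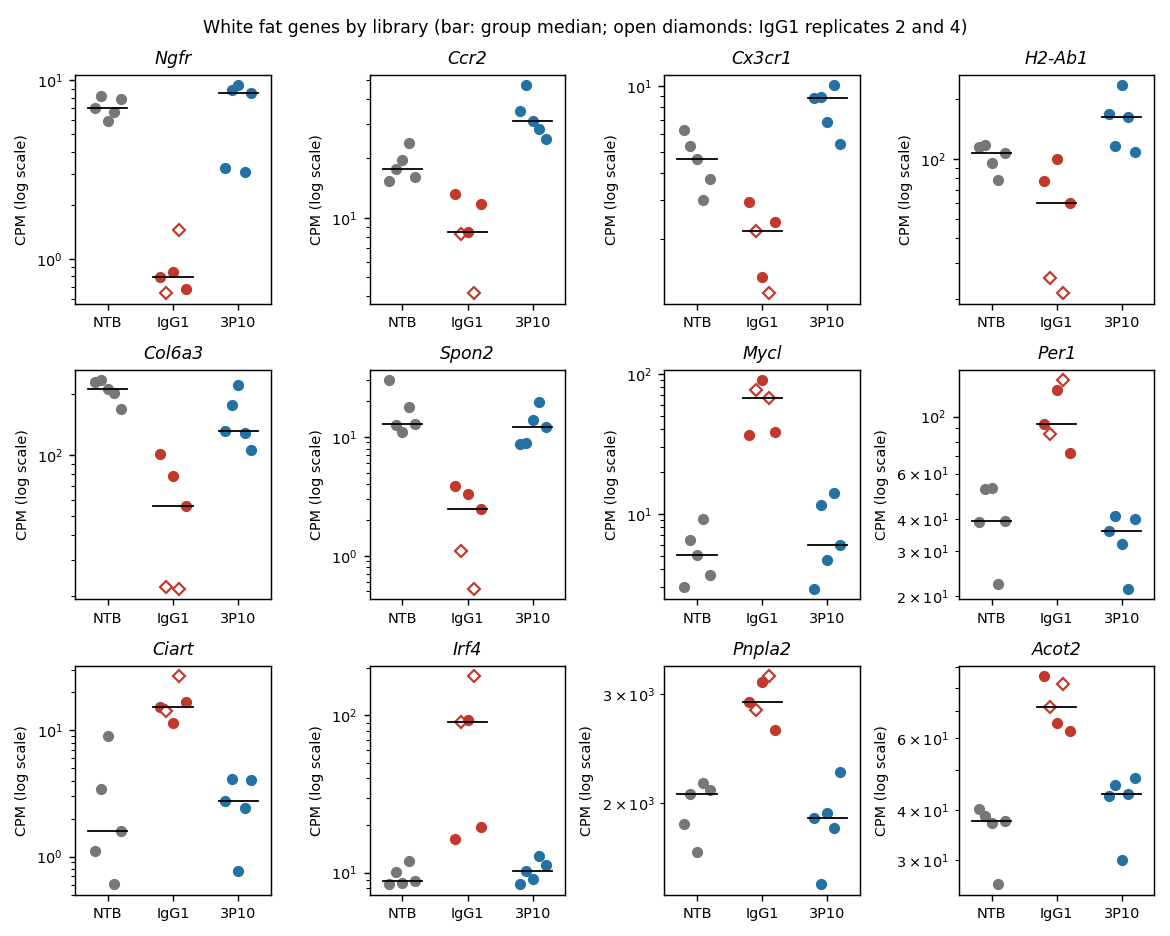
CPM (log scale) of 12 genes in each white fat library, 5 per group, with a bar at the group median and open diamonds for IgG1 replicates 2 and 4. Ngfr, Ccr2, Cx3cr1, H2-Ab1, Col6a3 and Spon2 are higher in every 3P10 library than in any IgG1 library, and Mycl, Per1, Ciart, Irf4, Pnpla2 and Acot2 are lower.

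Genes of the circadian clock differed in many members. The clock is a loop in which CLOCK and its partner BMAL1, encoded by Arntl, switch on the Per and Cry repressors and output regulators through a DNA motif called the E-box. Of 20 tested clock and output genes 7 fell in 3P10, 1 rose and 12 did not pass, against 3.46% lower and 3.96% higher among all genes. Their median log2 fold change was -0.83, against 0.01 over all genes tested, and it was -0.81 with IgG1 replicates 2 and 4 left out, when 1 member, Per1, passed. Among the repressors, Per1 stood at 93.7, 85.4, 127, 138 and 72.2 CPM in IgG1 and at 36.0, 41.0, 31.9, 21.4 and 40.0 CPM in 3P10. Each IgG1 library lay above each 3P10 library and above NTB, at 22.3 to 53.0 CPM. Per1 fell by 1.6 (SE 0.24, adjusted p = 0.00602), and its value was -1.52 with both libraries left out (adjusted p = 0.0469).

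Per2 fell by 1.58, with 47.5 to 118 CPM in IgG1 and 18.2 to 34 CPM in 3P10. Cry1 fell by 1.09, with 11.6 to 25.2 CPM in IgG1 and 6.06 to 9.47 CPM in 3P10. Ciart, another repressor of the loop, read 15.3, 14.3, 11.3, 26.9 and 16.8 CPM in IgG1 and 2.74, 4.08, 0.776, 2.42 and 4.07 CPM in 3P10. These 3 genes showed no overlap between the groups. Ciart fell by 2.58 (SE 0.60, adjusted p = 0.0259). Among outputs, Hlf, a transcription factor gene driven by the clock, and Usp2, which encodes a ubiquitin protease, fell by 1.43 and 1.31. The activator gene Clock went the other way, from 44.0, 52.9, 58.2, 47.2 and 48.3 CPM in IgG1 to 73.1, 73.8, 82.1, 74.7 and 71.9 CPM in 3P10, all above IgG1, and rose by 0.58 (SE 0.11, adjusted p = 0.0162).

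The call of Per1 held without any single library. Among the others named here, Usp2, Clock, Cry1, Ciart, Per2 and Hlf lost their calls without one or more of IgG1 library 2, 4 and 5 and 3P10 library 1, 2, 3 and 4 (adjusted p up to 0.0547, 0.0547, 0.0564, 0.0618, 0.0805 and 0.106). The count of called clock genes was 3 without 3P10 library 3, 4 without IgG1 library 2 or 4 or 3P10 library 1 and 5 without 3P10 library 4. Time of day at tissue collection is not given in the labels, and its part in these differences was not tested. IgG1 against NTB, which shares the IgG1 libraries, gave 1.33 for Per1, 1.39 for Per2, 2.41 for Ciart and -0.63 for Clock, all at an adjusted p under 0.05.

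Per1, Cry1 and Ciart are the called clock genes whose promoter window held the E-box CACGTG. They were chosen for it, so a match in each was fixed by the choice. Their promoters are shown, from RefSeq on GRCm38.p6, as 300 bases in the direction of the gene, from 250 before the start site. Each E-box is in capitals. This motif reads the same on both strands. Per1 lies on the plus strand at chr11:69098699-69098998 and holds 1 match that begins 166 bases before the start, and Cry1 on the minus strand at chr10:85185005-85185304 holds 1 that begins 60 bases before it. Ciart, on the minus strand at chr3:95882179-95882478, holds 3, the farthest of which begins 116 bases before the start.
Per1: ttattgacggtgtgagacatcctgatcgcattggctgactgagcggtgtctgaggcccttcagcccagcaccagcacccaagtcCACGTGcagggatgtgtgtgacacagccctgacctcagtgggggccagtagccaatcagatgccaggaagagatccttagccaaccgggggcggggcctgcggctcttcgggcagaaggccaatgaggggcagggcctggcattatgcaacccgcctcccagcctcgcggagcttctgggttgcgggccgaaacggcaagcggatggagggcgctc
Cry1: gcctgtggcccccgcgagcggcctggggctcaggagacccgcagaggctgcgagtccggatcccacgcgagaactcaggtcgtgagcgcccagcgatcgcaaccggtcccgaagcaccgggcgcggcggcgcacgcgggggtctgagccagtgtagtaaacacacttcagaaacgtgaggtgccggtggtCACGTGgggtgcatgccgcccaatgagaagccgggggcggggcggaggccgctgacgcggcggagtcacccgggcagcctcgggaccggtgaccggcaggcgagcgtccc
Ciart: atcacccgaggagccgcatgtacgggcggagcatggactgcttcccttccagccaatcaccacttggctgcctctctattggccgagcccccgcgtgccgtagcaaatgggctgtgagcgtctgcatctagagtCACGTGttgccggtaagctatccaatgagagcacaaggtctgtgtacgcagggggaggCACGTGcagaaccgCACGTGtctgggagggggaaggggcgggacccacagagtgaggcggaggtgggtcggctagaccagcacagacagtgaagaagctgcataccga
The motif stood in 7.15% of all 32851 promoter windows of this length. Counted by gene, as in the counts that follow, 8.09% of 27025 genes held it in any of their windows. Of the 8 called clock genes 6 had a window in the table and 3 of them held the motif, and of all 20 genes 17 had one and 5 held it. A match is a run of letters and was not tested as a binding site.

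Glucocorticoid response genes were lower in part. Of 23 tested, 6 fell, 0 rose and 17 did not pass, against 3.46% lower among all genes, with a median of -0.62, or -0.53 without IgG1 replicates 2 and 4, when 1 member passed, again Per1. Fkbp5, a chaperone gene that glucocorticoid receptor activity induces, read 108, 173, 112.4, 232 and 99.1 CPM in IgG1 and 34.8, 54.5, 50.1, 33.2 and 79.1 CPM in 3P10. The groups did not overlap and IgG1 replicates 2 and 4 were the highest. Fkbp5 fell by 1.53 (SE 0.38, adjusted p = 0.0311), and its value was -1.08 without both (adjusted p = 0.201). Glul, which encodes glutamine synthetase, fell by 1.13, with 2309 to 4970.2 CPM in IgG1 and 1049 to 1869.8 CPM in 3P10, without overlap. The metallothionein gene Mt1 fell by 1.35, the feedback inhibitor gene Errfi1 by 1.44 and the transcription factor gene Klf15 by 0.62. These 3 had overlapping groups. Per1, counted in both lists, completes the 6. All 6 had a promoter window, and 3 of them, Fkbp5, Per1 and Klf15, held the E-box. The called clock genes likewise held it in 3 of 6. Of all 24 genes listed here, 20 had a window and 5 held the E-box, so it was not particular to the clock list. The glucocorticoid receptor motif was also searched. It stood in 1 of these 20 genes and in 0 called genes of either list. Only 0.0111% of all 27025 genes held it, so its absence decides nothing. The count of called members was 1 without IgG1 library 2 or 3P10 library 3 and 2 without IgG1 library 4 or 3P10 library 1. Apart from Per1, Glul, Mt1, Klf15, Fkbp5 and Errfi1 lost their calls without IgG1 library 2 or 3P10 library 3 (adjusted p up to 0.0507, 0.0641, 0.0703, 0.0805 and 0.114), and Mt1, Klf15, Fkbp5 and Errfi1 also without one or more of IgG1 library 3 and 4 and 3P10 library 1, 2, 4 and 5 and NTB library 2, 3, 4 and 5.

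Lipid release and burning were the next groups. Pnpla2 encodes the lipase that takes the first fatty acid off stored triglyceride, and Abhd5 its activator. Pnpla2 stood at 2914, 2824, 3135, 3208 and 2624 CPM in IgG1 and 1887, 1477, 1928, 1819 and 2246 CPM in 3P10, with every 3P10 library below every IgG1 library. It fell by 0.65 (SE 0.14, adjusted p = 0.022), and its value without IgG1 replicates 2 and 4 was -0.63 (adjusted p = 0.107). Abhd5 fell by 0.61, with 263 to 362 CPM in IgG1 and 154 to 252 CPM in 3P10, also without overlap. With 1 library left out, Pnpla2 and Abhd5 lost their calls without IgG1 library 2 or 4 or 3P10 library 3 (adjusted p up to 0.0595 and 0.077), and Abhd5 also without 3P10 library 1 or 2. Of 20 lipolysis and lipid droplet genes these 2 fell and 18 did not pass, against 3.46% lower among all genes, with a median of -0.27 (-0.22 without both libraries, when 0 passed). Without IgG1 replicate 3, 4 of them were called. Lipe, hormone-sensitive lipase, gave -0.27 (SE 0.16, adjusted p = 0.284). Adrb3, the beta-3 adrenergic receptor of fat cells, stood at 1148, 362, 834, 94.6 and 634 CPM in IgG1 and 687 to 931 CPM in 3P10. IgG1 replicates 2 and 4 were lowest, and the log2 fold change of 0.33 (SE 0.42, adjusted p = 0.634) became -0.18 without them.

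Acot2, a mitochondrial enzyme that frees fatty acids from coenzyme A, kept its call in every fit with 1 library left out. It read 85.4, 71.7, 65.4, 81.4 and 62.7 CPM in IgG1, 43.2, 46.1, 30.1, 43.8 and 47.9 CPM in 3P10 and 26.2 to 40.1 CPM in NTB. The IgG1 libraries all lay above both other groups. Acot2 fell by 0.80 (SE 0.14, adjusted p = 0.0123), and its value was -0.75 without IgG1 replicates 2 and 4 (adjusted p = 0.0853). Its neighbours in function Acot4 and Acot3, enzymes of peroxisomes, fell by 1.29 and 3.19, with 0 to 1.29 CPM of Acot3 in 3P10 against 1.25 to 7.24 CPM in IgG1. The Acot genes are close copies, so reads may be split among them. These 3 were the called members of 19 fasting-responsive PPAR targets, against 3.46% lower among all genes, with a median of -0.78, or -0.26 without both libraries, when 0 passed. Here Acot4 and Acot3 lost their calls without IgG1 library 2 or 4 or 3P10 library 1 or 3 (adjusted p up to 0.0659 and 0.0833), and Acot3 also without IgG1 library 5 or 3P10 library 2, and the count of called PPAR targets was 1 without IgG1 library 2 or 4 or 3P10 library 1 or 3, 6 without IgG1 library 1 and 7 without IgG1 library 3.

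Of 23 fatty acid beta-oxidation genes 5 fell and 18 did not pass, against 3.46% lower among all genes, and 22 of the 23 had a negative value. Beside Acot2 these were Eci2, at -0.70, Acads, at -0.74, Echs1, at -0.89, and Eci1, at -1.16, all enzymes of fatty acid breakdown. Eci1 shows how the IgG1 libraries differed, with 137, 476, 129, 437 and 228 CPM in IgG1 and 139.9, 95.3, 91.7, 152 and 151 CPM in 3P10. IgG1 replicates 2 and 4 stood highest and replicates 1 and 3 lay within the 3P10 range. The median of the list shrank from -0.80 to -0.26 without both libraries, when 0 members passed. The count of called members was 1 without IgG1 library 2 or 4 or 3P10 library 3, 2 without IgG1 library 5 or 3P10 library 1, 2 or 4 or NTB library 2 or 3, 3 without NTB library 1, 4 or 5, 14 without IgG1 library 1 and 19 without IgG1 library 3. By gene, Eci2, Acads, Echs1, Eci1 and Sdhb lost their calls without IgG1 library 2 or 4 or 3P10 library 3 (adjusted p up to 0.0588, 0.108, 0.127, 0.125 and 0.119), and Acads, Echs1, Eci1 and Sdhb also without one or more of IgG1 library 5 and 3P10 library 1, 2 and 4 and NTB library 1, 2, 3, 4 and 5. The 52 oxidative phosphorylation genes had 1 call, the fall of Sdhb at -1.16, which encodes a subunit of succinate dehydrogenase, and 50 negative values. A single call of 52 is under the 3.46% lower among all genes. Their median went from -0.72 to -0.15, and 0 passed, without both libraries. The number of those called was 0 without IgG1 library 2, 4 or 5 or 3P10 library 1, 2, 3 or 4 or NTB library 1, 2, 3, 4 or 5, 2 without 3P10 library 5, 18 without IgG1 library 1 and 33 without IgG1 library 3.

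Thermogenic genes had the lowest median of the 24 lists and no call. Of 22 tested, 21 had a negative value and 0 passed by edgeR, with a median of -1.29 that became 0.04 with IgG1 replicates 2 and 4 left out. The number called was 1 without IgG1 library 1 and 5 without IgG1 library 3. Ucp1, which encodes the protein that uncouples respiration to make heat, read 73.6, 3286, 37.1, 3143 and 712 CPM in IgG1 and 573, 120.0, 84.6, 622 and 263 CPM in 3P10. The 3P10 values fell within the IgG1 range, between replicates 1 and 3 at the low end and replicates 2 and 4 at the high end. Ucp1 gave -2.12 (SE 0.98, adjusted p = 0.172) and 0.28 without both libraries. Summed brown fat cell markers were 304 to 6247 CPM in IgG1 and 374 to 1491 CPM in 3P10. The 2 libraries highest in this sum are the ones whose removal shrank the beta-oxidation, oxidative phosphorylation and thermogenic medians, and the part of brown fat cells in those medians was not tested.

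**Figure D5:**
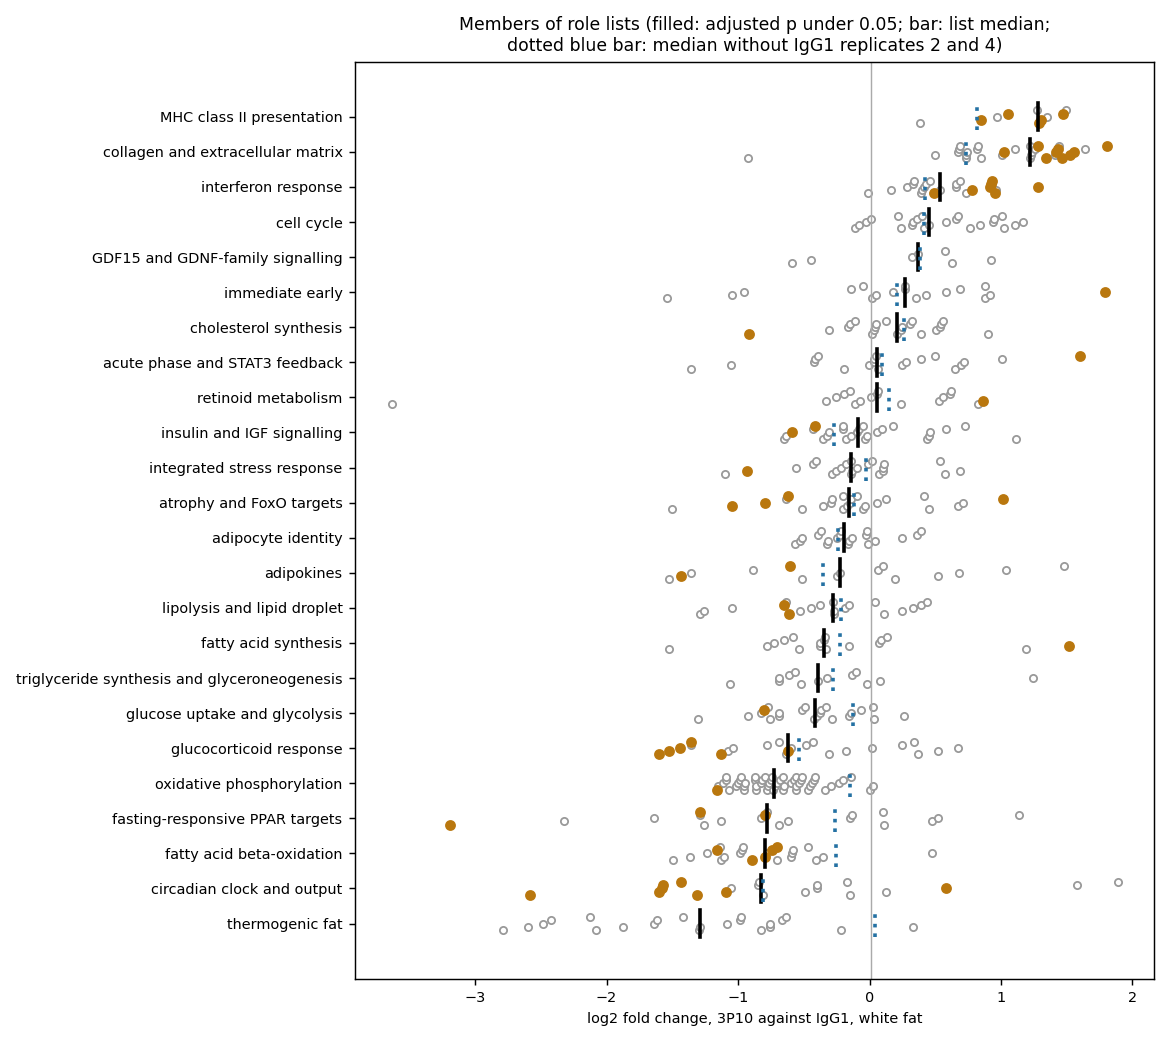
Log2 fold change in 3P10 against IgG1 (horizontal axis) of each tested member of 24 gene lists (rows), filled where the adjusted p was under 0.05, with a black bar at the list's median and a dotted blue bar at its median without IgG1 replicates 2 and 4. The blue bars lie close to the black ones for the clock and glucocorticoid lists, at -0.81 and -0.53, and near 0 for thermogenic fat, at 0.04.

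Genes of the extracellular matrix rose in part. Of 30 collagen and matrix genes 9 rose in 3P10, 0 fell and 21 did not pass, against 3.96% higher among all genes, and 29 had a positive value. The median was 1.22 and fell to 0.74 without IgG1 replicates 2 and 4, when 1 member passed, Loxl1, a lysyl oxidase gene that was not among the 9 (0.74 with all libraries, adjusted p = 0.0647, and 1.22 without both, adjusted p = 0.0433). Col6a3, a chain of collagen VI, stood at 100.5, 22.1, 78.4, 21.6 and 56.1 CPM in IgG1 and 132, 177, 223, 129 and 106 CPM in 3P10. The groups did not overlap, and IgG1 replicates 2 and 4 lay below the other 3. Col6a3 rose by 1.46 (SE 0.36, adjusted p = 0.0311; 0.97 without both, adjusted p = 0.0963). Fibrillin-1, Fbn1, which builds microfibrils, read 32.2, 25.7, 46.5, 24.3 and 26.8 CPM in IgG1 and 65.3, 103, 86.0, 85.8 and 37.3 CPM in 3P10. IgG1 replicate 3 lay above 3P10 replicate 5, and the other libraries kept apart. Fbn1 rose by 1.28 (SE 0.24, adjusted p = 0.0144) and kept its call without any single library, with 1.10 and an adjusted p of 0.105 without both.

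Fibronectin, Fn1, rose by 1.02, with 68.7 to 118 CPM in IgG1 and 119 to 237 CPM in 3P10, and the proteoglycan gene Lum by 1.55. The fibrillar collagen genes Col1a1, Col1a2, Col3a1 and Col5a2 rose by 1.80, 1.43, 1.42 and 1.34, and Loxl2, a collagen cross-linking enzyme, by 1.53. In Fn1 the groups did not overlap, and in the other 6 of these genes they did. Among these matrix genes, Lum, Fn1, Col6a3, Loxl2, Col1a2, Col1a1, Col5a2 and Col3a1 lost their calls without IgG1 library 2 or 4 or 3P10 library 3 (adjusted p up to 0.0595, 0.0702, 0.0811, 0.0897, 0.0964, 0.0979, 0.101 and 0.105), and Fn1, Col6a3, Loxl2, Col1a2, Col1a1, Col5a2 and Col3a1 also without one or more of IgG1 library 5 and 3P10 library 1, 2 and 4 and NTB library 1, 2, 3, 4 and 5. The count of called matrix genes was 1 without IgG1 library 2 or 4 or 3P10 library 3, 2 without IgG1 library 5 or 3P10 library 1 or 2, 4 without 3P10 library 4 or NTB library 2 or 3, 18 without IgG1 library 3 and 19 without IgG1 library 1. Fibroblast and preadipocyte markers, 14 genes that share Fbn1 and Lum with the matrix list, summed to 649 to 1446 CPM in IgG1, 954 to 1976 CPM in 3P10 and 1298 to 2421 CPM in NTB. Of them 6 rose and 8 did not pass, against 3.96% higher among all genes, with a median of 0.78. Without both libraries the median was 0.65 and 0 passed by edgeR. Thy1, a surface protein of fibroblasts, stood at 7.93, 7.44, 4.09, 4.50 and 3.2 CPM in IgG1 and 14.6, 12.8, 21.3, 17.2 and 8.03 CPM in 3P10, all above IgG1. It rose by 1.45 (SE 0.30, adjusted p = 0.0197). The surface protein gene Cd34 rose by 0.90, and Dpt and Mfap5, which encode matrix proteins, by 1.35 and 0.86. Of these markers, Thy1, Cd34, Dpt and Mfap5 lost their calls without IgG1 library 4 or 3P10 library 3 (adjusted p up to 0.0552, 0.0863, 0.0856 and 0.116), and Cd34, Dpt and Mfap5 also without one or more of IgG1 library 2 and 5 and 3P10 library 1, 2 and 4 and NTB library 1, 2, 3, 4 and 5. The part of a changed share of fibroblasts in the matrix values was not tested.

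Genes of immune cells rose in part as well. Of 18 macrophage markers 7 rose, 0 fell and 11 did not pass, against 3.96% higher among all genes, and all 18 had a positive value. Their median was 0.93, and 0.68 without IgG1 replicates 2 and 4, when Ccr2 alone passed. The 18 markers summed to 242 to 532 CPM in IgG1, 459 to 1045 CPM in 3P10 and 444 to 733 CPM in NTB, so 3P10 reached above both other groups while its lowest library lay within them. Beside Ccr2, the risen genes were Mpeg1, which encodes the pore protein perforin-2, at 0.99, the complement genes C1qc and C1qa at 1.35 and 1.08, the lysozyme gene Lyz2 at 0.94, Adgre1, which encodes the F4/80 antigen, at 0.93, and the integrin gene Itgax at 1.79. Ccr2 aside, Mpeg1, C1qc, Lyz2, Adgre1, C1qa and Itgax lost their calls without IgG1 library 2 or 4 or 3P10 library 3 (adjusted p up to 0.0621, 0.0833, 0.0916, 0.107, 0.108 and 0.117), and C1qc, Lyz2, Adgre1, C1qa and Itgax also without one or more of IgG1 library 5 and 3P10 library 1, 2 and 4 and NTB library 1, 2, 3, 4 and 5. Ccl8, a chemokine gene, rose by 3.41 (SE 0.68, adjusted p = 0.0183), from 0.279, 0.161, 0.156, 0.290 and 0.757 CPM in IgG1 to 1.56, 6.93, 3.30, 4.72 and 1.07 CPM in 3P10. The Ccl8 groups did not overlap, and the call ended without IgG1 replicate 2 (adjusted p = 0.0554).

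Class II presentation, by which macrophages, dendritic cells and B cells show antigen to T cells, had 5 of 10 tested genes higher and 0 lower, against 3.96% higher among all genes, and all 10 were positive. The median was 1.28, or 0.82 without both IgG1 libraries, when 0 passed. H2-Ab1, the beta chain of a class II molecule, stood at 77.2, 25.3, 100.1, 21.3 and 60 CPM in IgG1 and 167, 116, 234, 163 and 108 CPM in 3P10. Every 3P10 library exceeded the IgG1 range, and IgG1 replicates 2 and 4 were lowest. H2-Ab1 rose by 1.47 (SE 0.36, adjusted p = 0.0295; 0.99 without both, adjusted p = 0.0963). H2-Eb1, another chain, rose by 1.29, the loading factors H2-DMa and H2-DMb1 by 0.85 and 1.31, and Ctss, the protease that clears the invariant chain, by 1.05. The number of class II genes called was 0 without IgG1 library 2 or 4 or 3P10 library 3, 2 without IgG1 library 5 or 3P10 library 1, 3 without 3P10 library 4 and 8 without IgG1 library 3. Per gene, H2-Ab1, H2-Eb1, H2-DMa, H2-DMb1 and Ctss lost their calls without IgG1 library 2 or 4 or 3P10 library 3 (adjusted p up to 0.0757, 0.106, 0.0619, 0.0749 and 0.0619), and H2-Ab1, H2-Eb1 and H2-DMb1 also without one or more of IgG1 library 5 and 3P10 library 1, 2 and 4 and NTB library 1, 2, 3 and 5.

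Of 23 interferon response genes 7 rose, 0 fell and 16 did not pass, against 3.96% higher among all genes. Their median of 0.54 was 0.42 without both libraries, when 0 passed. Mx1, an antiviral GTPase gene, had 1.04, 1.17, 0.750, 1.09 and 1.40 CPM in IgG1 and 2.67, 3.40, 1.32, 2.47 and 3.41 CPM in 3P10, with 3P10 replicate 3 inside the IgG1 range and the rest above it. Mx1 rose by 1.28 (SE 0.30, adjusted p = 0.026), Ifit3 by 0.95, Rsad2 by 0.93, Isg15 by 0.92, Ifi44 by 0.92, Oasl2 by 0.78 and the transcription factor gene Irf9 by 0.49. The number of interferon genes called was 0 without IgG1 library 2 or 4, 1 without 3P10 library 1, 3 or 4, 2 without IgG1 library 5 or NTB library 2, 3 without NTB library 5, 4 without NTB library 1 or 3 and 13 without IgG1 library 1. Of these genes, Mx1, Ifit3, Rsad2, Isg15, Ifi44, Oasl2 and Irf9 lost their calls without IgG1 library 2 or 4 (adjusted p up to 0.0644, 0.0986, 0.122, 0.108, 0.066, 0.0983 and 0.106), and Mx1, Ifit3, Rsad2, Isg15, Ifi44, Oasl2 and Irf9 also without one or more of IgG1 library 1 and 5 and 3P10 library 1, 2, 3, 4 and 5 and NTB library 1, 2, 3, 4 and 5. B and T cell markers, 16 genes, summed to 2.34 to 4.63 CPM in IgG1 and 4.90 to 7.61 CPM in 3P10.

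Genes that define fat cells had no call. Of 20 adipocyte identity genes 0 passed by edgeR, with all 15 libraries or with any 1 left out, at a median of -0.19, and also 0 without IgG1 replicates 2 and 4, at -0.24. Adiponectin, Adipoq, read 1824 to 4363 CPM in IgG1 and 1988 to 3073 CPM in 3P10 and gave -0.23 (SE 0.24, adjusted p = 0.559). Leptin, Lep, the hormone that reports fat stores, stood at 1128, 155, 1386, 60.2 and 343 CPM in IgG1 and 1801, 1706, 2686, 579.9 and 1782 CPM in 3P10. Only IgG1 replicates 2, 4 and 5 lay below the 3P10 range, and the difference of 1.48 did not pass (SE 0.63, adjusted p = 0.143; 0.85 without IgG1 replicates 2 and 4). Among 15 adipokine genes Agt, angiotensinogen, fell by 1.43 and Nrg4, a neuregulin secreted by fat, by 0.61, but Agt and Nrg4 lost their calls without IgG1 library 2 or 5 or 3P10 library 1, 2, 3 or 4 (adjusted p up to 0.0831 and 0.125), and Nrg4 also without IgG1 library 1 or 4 or 3P10 library 5 or NTB library 2, 3, 4 or 5. The number of adipokine genes called was 0 without IgG1 library 2 or 5 or 3P10 library 1, 2, 3 or 4, 1 without IgG1 library 1 or 4 or 3P10 library 5 or NTB library 2, 3, 4 or 5 and 7 without IgG1 library 3. Their median was -0.23, or -0.35 without IgG1 replicates 2 and 4, when 0 passed. Scd2, a fatty acid desaturase gene, was the 1 call of 17 fatty acid synthesis genes and rose by 1.52 without overlap (SE 0.41, adjusted p = 0.0385). Here too Scd2 lost its call without IgG1 library 2 or 4 or 3P10 library 1, 3 or 4 or NTB library 2 or 3 (adjusted p up to 0.101), and 3 genes of that list were called without IgG1 replicate 1 or 3. The median of that list was -0.34, or -0.23 without IgG1 replicates 2 and 4, when 0 passed. Triglyceride synthesis, with 13 genes and a median of -0.39, had 0 calls by edgeR, but 2 without IgG1 library 1 and 3 without IgG1 library 3. It had 0 calls and a median of -0.28 without IgG1 replicates 2 and 4.

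Insulin signalling gave the falls of the kinase genes Akt1 and Akt2, by 0.59 and 0.41, among 26 genes with a median of -0.09, or -0.27 without IgG1 replicates 2 and 4, when 0 passed. The Akt2 libraries ran from 312 to 344 CPM in IgG1 and from 214 to 279 CPM in 3P10, a small and complete separation. Pdk2, a kinase that holds pyruvate back from mitochondria, fell by 0.80 (SE 0.16, adjusted p = 0.0187) as the 1 call of 22 glucose uptake and glycolysis genes. Among 24 atrophy and FoxO targets Fbxo31, Fbxo21 and Klf15 fell, by 1.05, 0.80 and 0.62, and the stress gene Gadd45a rose by 1.02. Single calls came from cholesterol synthesis, 21 genes, where Fdft1 fell by 0.92, from 22 integrated stress response genes, where Chac1 fell by 0.93, and from 18 immediate early genes, where Egr2 rose by 1.79. The retinoic acid receptor gene Rara rose by 0.86 among 17 retinoid genes, and the chemokine gene Ccl2 by 1.6 among 20 acute phase and STAT3 feedback genes. Of these, Akt1, Akt2, Pdk2, Fbxo31, Fbxo21 and Gadd45a lost their calls without IgG1 library 2 or 3P10 library 3 (adjusted p up to 0.0659, 0.082, 0.0553, 0.0631, 0.0952 and 0.0659), and Akt1, Akt2, Fbxo31, Fbxo21 and Gadd45a also without one or more of IgG1 library 4 and 5 and 3P10 library 1 and 4 and NTB library 2. Chac1 lost its call whichever of the 15 libraries was left out (adjusted p from 0.0502 to 0.0888). In the other lists with a single call, Fdft1, Egr2, Rara and Ccl2 lost their calls without IgG1 library 2 or 4 or 3P10 library 3 (adjusted p up to 0.0622, 0.0642, 0.0659 and 0.136), and Egr2, Rara and Ccl2 also without one or more of IgG1 library 5 and 3P10 library 1 and 2 and NTB library 1, 2, 3, 4 and 5. None of these lists had a member that passed by edgeR without IgG1 replicates 2 and 4. With and without both libraries the medians were -0.41 and -0.13 for glycolysis, -0.16 and -0.11 for atrophy and FoxO targets, 0.21 and 0.26 for cholesterol synthesis, and -0.14 and -0.03 for the integrated stress response. They were 0.27 and 0.21 for immediate early genes, 0.06 and 0.15 for retinoid metabolism, and 0.06 and 0.09 for the acute phase list. Their counts of called members were at most 4 of 24, against 3.46% lower and 3.96% higher among all genes. Higher counts came without IgG1 replicate 3, with 10 glycolysis genes, 6 immediate early genes, 3 retinoid genes and 3 acute phase genes called, and without IgG1 replicate 1, with 2 glycolysis genes, 2 immediate early genes, 3 retinoid genes and 2 acute phase genes. Without 3P10 replicate 5 there were 2 immediate early and 3 acute phase genes. Cell cycle genes, 23 in number, had 0 calls by edgeR and a median of 0.45, with 4 calls without IgG1 replicate 1, and 0 calls at a median of 0.42 without IgG1 replicates 2 and 4.

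Several falls of large fold rested on IgG1 replicates 2 and 4. Mfsd2a, a lipid transporter gene, stood at 0.478, 25.8, 0.969, 71.3 and 0.871 CPM in IgG1 and 0.0693, 0.0400, 0, 0.859 and 0.241 CPM in 3P10. It fell by 6.50 (adjusted p = 0.0217). Mfsd2a lost its call without IgG1 library 2 or 4 or 3P10 library 1 or 3 (adjusted p up to 0.059), and without both libraries the value was -1.77 (adjusted p = 0.315). Krt14, a keratin of skin, read 283 CPM in IgG1 replicate 4 and at most 0.805 CPM in any other IgG1 library. Its fitted value was -7.29 (SE 2.13, adjusted p = 0.0495) with all libraries and 0.87 without IgG1 replicate 4. The desmosome gene Dsp, with 0.319, 27.6, 0.281, 118 and 0.0757 CPM in IgG1 and 0.240 to 1.34 CPM in 3P10, gave -5.63. Lactoferrin, Ltf, held 0.120, 65.4, 0.281, 12.2 and 0.114 CPM in IgG1 and 0 to 0.797 CPM in 3P10 and gave -5.07. These 3 values turned positive without both libraries, at 6.28 for Krt14, 1.39 for Dsp and 1.36 for Ltf, all at adjusted p over 0.05. Krt14 and Dsp are members of the keratinocyte and skin list, whose sum was 1119 CPM in IgG1 replicate 4, and the part of such cells was not tested. Ltf is a member of the neutrophil list and is also made by glandular epithelium, whose listed markers summed to 253 and 357 CPM in IgG1 replicates 2 and 4. The neutrophil sum of 81.9 CPM in IgG1 replicate 2 was mostly Ltf itself: the other 10 neutrophil markers summed to 16.5 CPM there and to 9.28 CPM in IgG1 replicate 4, against 14.3 to 35.5 CPM in the other 13 libraries. With single libraries left out, Krt14, Dsp and Ltf lost their calls without IgG1 library 2 or 4 or 3P10 library 1, 2, 3, 4 or 5 or NTB library 2 or 3 (adjusted p up to 0.704, 0.132 and 0.191), and Krt14 and Ltf also without one or more of IgG1 library 5 and NTB library 1, 4 and 5.

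Other named genes had large changes. Pla2g2e came from the panel, and its groups overlapped. The rest were taken from genes whose groups did not overlap, so that trait was fixed by the choice. The brain phosphatase gene Ptpn5 rose by 4.63, the microRNA symbol Mir6236 by 2.70, the potassium channel gene Kcnj14 by 2.22, the protease gene Htra4 by 2.20 and the cilium gene Hydin by 2.0. Mir6236 counts reads over a hairpin's symbol and is not a measure of the mature microRNA. Pla2g2e, a secreted phospholipase gene, rose by 1.89, with 0.276 to 1.16 CPM in IgG1, 0.831 to 3.38 CPM in 3P10 and 2.94 to 11.6 CPM in NTB. Falls were seen in Pkp1, a desmosome gene, by 2.79, Hpd, of tyrosine breakdown, by 2.64, Rapgefl1 by 2.61, Accsl by 2.55 and Fxyd7, a regulator of the sodium pump, by 2.01. Each of these 11 calls ended with some library left out. For the rises, Ptpn5, Mir6236, Kcnj14, Htra4, Hydin and Pla2g2e lost their calls without IgG1 library 2 or 4 (adjusted p up to 0.106, 0.0575, 0.12, 0.0905, 0.0994 and 0.0972), and Ptpn5, Kcnj14, Htra4, Hydin and Pla2g2e also without one or more of IgG1 library 5 and 3P10 library 1, 2, 3, 4 and 5 and NTB library 1, 2, 3, 4 and 5. For the falls, Pkp1, Hpd, Rapgefl1, Accsl and Fxyd7 lost their calls without IgG1 library 4 (adjusted p up to 0.054, 0.0935, 0.106, 0.067 and 0.0805), and Hpd, Rapgefl1, Accsl and Fxyd7 also without one or more of IgG1 library 2 and 5 and 3P10 library 1, 2, 3 and 4. Of the 11, Rapgefl1 moved most without IgG1 replicates 2 and 4, from -2.61 to -0.73.

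To ask where white fat differed from another tissue of mice under the same antibodies, the 3P10 against IgG1 difference was tested against that in gastrocnemius muscle, with 5 libraries per antibody in each tissue. The interaction passed for 31 of 14898 genes, 0.208%, of which 16 were higher in white fat and 15 lower, and 20 of the 31 were also called in white fat. Angptl7, a secreted angiopoietin-like protein gene, gave 1.82 in white fat and -1.07 in muscle, a difference of 2.89 (SE 0.44, adjusted p = 0.00534). In white fat it held 0.379 to 1.28 CPM in IgG1 and 1.42 to 4.15 CPM in 3P10, without overlap. Bcat2, which starts the breakdown of branched-chain amino acids, gave -1.34 against 0.18, a difference of -1.53 (adjusted p = 0.00906). The hydrolase gene Ephx2 differed by -1.27 and Morf4l2, a chromatin gene, by 0.89 (both at adjusted p = 0.0139). Retsat, which saturates retinol, differed by -1.28 (adjusted p = 0.0407) and Gadd45a by 1.56 (adjusted p = 0.0415). The first 4 of these 6 differences passed whichever of the 20 tumour-bearing libraries was left out, and Retsat did so in 10 of 20 fits. Retsat lost its call without white fat IgG1 replicate 2 or 4 or 3P10 replicate 1, 2 or 3, and without muscle IgG1 replicate 2 or 4 or 3P10 replicate 1, 3 or 5 (adjusted p up to 0.0912). Gadd45a passed in 5 of the 20, those without white fat IgG1 replicate 1 or 3 or 3P10 replicate 4 or 5 or muscle IgG1 replicate 1 (adjusted p up to 0.110 in the rest). With white fat IgG1 replicates 2 and 4 both left out their adjusted p ran from 0.0563 for Angptl7 to 0.249. Column names of both tissues share their numbers within each group and replicate, and the labels do not say whether a shared number is 1 mouse. The fit above does not use these numbers. With the shared number as a block, a fit added after the data were seen, 5 genes passed, of which 4 were among the 31. Angptl7 and Bcat2 kept their calls there (adjusted p = 0.0197 and 0.0256), and Ephx2, Morf4l2, Retsat and Gadd45a lost theirs (adjusted p = 0.0513, 0.0937, 0.106 and 0.110). The count of 31 was 0 without white fat IgG1 replicates 2 and 4 by edgeR, with 1220 genes at an unadjusted p under 0.05, against 2233. Dropping a white fat library changed it to 562 (IgG1 replicate 3), 314 (IgG1 replicate 1), 118 (3P10 replicate 5), 50 (3P10 replicate 4), 12 (3P10 replicate 1 or 3), 5 (IgG1 replicate 2 or 4) or 4 (3P10 replicate 2). Dropping a muscle library changed it to 116 (IgG1 replicate 1), 17 (IgG1 replicate 5), 14 (IgG1 replicate 3), 9 (3P10 replicate 4), 8 (replicate 2 of IgG1 or 3P10) or 4 (IgG1 replicate 4, or replicate 1, 3 or 5 of 3P10).

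The NTB libraries place these genes beside tumour-free fat. IgG1 against NTB, which shares its IgG1 libraries with the comparison above, gave -2.97 for Ngfr, 3.49 for Mycl, 3.06 for Irf4, -2.93 for Spon2, 1.03 for Acot2, 0.58 for Pnpla2, 2.06 for Fkbp5 and -1.91 for Col6a3, all at an adjusted p under 0.05 by edgeR. Immune genes were mixed in IgG1 against NTB. Ccr2 at -1.02, Cx3cr1 at -1.22 and Ccl8 at -3.20 passed by edgeR (adjusted p = 0.0275, 0.0211 and 0.0149). Immune genes that did not pass there include H2-Ab1 at -0.86 (adjusted p = 0.127) and C1qc at -0.88 (adjusted p = 0.0978). So do Mpeg1 at -0.20 (adjusted p = 0.571) and Mx1 at 0.19 (adjusted p = 0.716). The IgG1 range of Mx1, 0.750 to 1.40 CPM, lay within that of NTB, 0.640 to 1.41 CPM. In NTB, Pnpla2 lay at 1664 to 2151 CPM, Fkbp5 at 14.6 to 60 CPM, Col6a3 at 169 to 234 CPM, Spon2 at 11 to 30.0 CPM and H2-Ab1 at 78.7 to 118 CPM. The NTB and 3P10 ranges of these 5 genes overlapped, and NTB lay wholly outside the IgG1 range for Pnpla2, Fkbp5, Col6a3 and Spon2 but not for H2-Ab1.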

How the data were processed

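RNA was sequenced from flash-frozen white fat with a directional kit, per the labels' protocols. The deposited values are raw counts of reads per gene; per the submitters' processing notes the tools were Trim Galore, STAR 2.6.0a, featureCounts 1.6.2 and edgeR 3.22.3 on mm9, and the strand setting is not given in the sources used here. Groups come from the labels. Counts were tested in R 4.3.3 with edgeR 4.0.16 (TMM, filterByExpr with a minimum count of 10 and a total of 15, quasi-likelihood test), with the NTB, IgG1 and 3P10 libraries in 1 fit with 12 residual degrees of freedom, and Benjamini-Hochberg adjustment over 14402 genes. The difference between tissues came from a fit of 30 libraries in 6 groups. Alternatives were DESeq2 1.42.0, limma 3.58.1, other scaling, filters and sample sets, and each library left out. No library repeated another: the highest correlation between libraries was 0.986. On data simulated for 3P10 against IgG1, with 14292 genes, 49.5% of genes changed 2-fold and 17.2% of those changed 1.5-fold were called. There 5 unchanged genes were called. For the difference between tissues, with 14783 genes, 28.4% of genes changed 2-fold and 2 unchanged genes were called. Simulated counts were drawn for each gene apart, so no simulated library stood apart over many genes as IgG1 replicates 2 and 4 do. The rates do not cover such libraries.

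The genes named are the 10 largest rises and falls among called genes with a mean of at least 1 CPM and groups that do not overlap, up to 4 called members of each gene list and 3 of each marker list with the smallest adjusted p, and a panel of 20 genes; other called members of a list are named to complete its count. The comparison, the lists and the panel were chosen with earlier results of these data known. The level of 3 reads covers counting error only. Each SE comes from the quasi-likelihood fit, which takes in the spread between libraries. Coordinates of genes are not given, since the counts are on mm9; promoters are from GRCm38.p6. Some genes of the lists are not reported here by name, and the counts include them.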

Additional observations from a re-analysis of the deposited data

Results flagged for a closer look

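In several groups of 5 libraries 1 library lay far from the other 4, by a rule that flags about 1 in 20 groups by chance; it did so in 16 of 190 groups of values. In IgG1 replicate 4 the highest values stood alone for Krt14 at 283 CPM, Dsp at 118 CPM, Usp2 at 83.5 CPM, Rapgefl1 at 11.7 CPM, Fxyd7 at 3.71 CPM and Ngfr at 1.46 CPM, for the sum of keratinocyte and skin markers at 1119 CPM, and for the library total at 80.7 M counts. In IgG1 replicate 2 they were Ltf at 65.4 CPM and the sum of neutrophil markers at 81.9 CPM, which holds Ltf and is 16.5 CPM without it, within the range of the other libraries. In IgG1 replicate 5 it was Ccl8 at 0.757 CPM. For Ngfr and Ccl8 the library that stood alone was still below all 3P10 libraries.

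Among the 3P10 libraries, replicate 3 stood alone with the lowest Acot2, 30.1 CPM, and the highest Clock, 82.1 CPM, and Ccl2, 4.19 CPM. Replicate 4 did so for Mfsd2a at 0.859 CPM and for the sum of epididymis and testis markers at 0.483 CPM, a level of few reads.

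The difference between 3P10 and IgG1 itself differed between white fat and muscle for 6 genes named here, by an interaction test in edgeR. On the log2 scale, white fat minus muscle, it was 2.89 for Angptl7 (adjusted p = 0.00534), -1.53 for Bcat2 (adjusted p = 0.00906), -1.27 for Ephx2 and 0.89 for Morf4l2 (both at adjusted p = 0.0139), -1.28 for Retsat (adjusted p = 0.0407) and 1.56 for Gadd45a (adjusted p = 0.0415). With the number that both tissues' columns share as a block, Angptl7 and Bcat2 passed and the other 4 did not.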

How the results depend on the processing

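The number of genes called in 3P10 against IgG1, 1068 as reported, was 2282 by DESeq2, 1836 by limma voom with library weights, 105 with only the 2 groups compared, 15 with IgG1 replicates 2 and 4 both left out and 0 by edgeR with both left out and only the 2 groups compared, a fit added after the data were seen (1848 genes at an unadjusted p under 0.05, smallest adjusted p 0.109). With 1 library left out it ran from 127 to 2304. With another scaling it was 1101, with a stricter filter 1104, without a filter 765 and with a robust fit 1046. The share of calls that were higher in 3P10, 53.4%, was 47.1% by DESeq2, 64.5% without 3P10 replicate 1 and 26.7% without both libraries. With the replicate number as a block, 0 genes passed by edgeR, 3286 lay at an unadjusted p under 0.05 and the smallest adjusted p was 0.0537; the deviations of same-numbered IgG1 and 3P10 libraries correlated at -0.07, -0.16, 0.47, 0.32 and 0.30, and the labels do not say what the number marks, so it was not taken as a pairing. Of the 73 called genes that were named by rule, 5 kept their call without both libraries. With IgG1 replicate 2 left out 17 kept it, with IgG1 replicate 4 left out 20, and with 3P10 replicate 3 left out 17.

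The sign turned in these fits: Krt14 gave 1.83 by limma voom with library weights and 0.87 without IgG1 replicate 4, the highest value with 1 library left out (the lowest was -7.66, without 3P10 replicate 1). Without IgG1 replicates 2 and 4 the values were 6.28 for Krt14, 1.39 for Dsp, 1.36 for Ltf, -0.18 for Adrb3 and 0.28 for Ucp1, and with only the 2 groups as well they were 6.26 for Krt14, 1.38 for Dsp, 1.34 for Ltf, -0.19 for Adrb3 and 0.27 for Ucp1. The cause was not tested. The number of genes whose difference differed between white fat and muscle, 31, was 412 by DESeq2, 0 by edgeR without white fat IgG1 replicates 2 and 4, 6 with the replicate block within tissue, 5 with a block by the number that columns of both tissues share (added after the data were seen), and 4 to 562 with 1 library left out. Genes of few reads, such as Gdf15 and Gfral, allow no statement on small differences at this depth.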

Other observations

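Further groups were looked at after values had been seen, so their counts describe these libraries and support nothing else. Genes of dendritic cells, which take up antigen and carry it to T cells, differed in part: of 11 tested 6 rose in 3P10, 0 fell and 5 did not pass, against 3.96% higher among all genes, with a median of 1.41. Without IgG1 replicates 2 and 4 the median was 1.09 and 0 passed by edgeR (Xcr1 at an adjusted p of 0.0508). Xcr1, the chemokine receptor of cross-presenting dendritic cells, held 0 to 0.188 CPM in IgG1 and 0.589 to 1.09 CPM in 3P10. Irf8, a transcription factor gene these cells need, held 3.30 to 7.09 CPM in IgG1 and 9.76 to 22.6 CPM in 3P10. The groups did not overlap in either gene. Xcr1 rose by 3.81 (adjusted p = 0.0113 by edgeR) and Irf8 by 1.41 (adjusted p = 0.0138), and both calls held with any 1 library left out. In IgG1, Xcr1 lay at 0 or near the level of 3 reads, so the size of its rise rests on few reads. Clec9a, a receptor for dead cells, rose by 2.12, the growth factor receptor gene Flt3 by 2.03, the lectin gene Cd209a by 1.67 and Itgax, also counted among the macrophage markers, by 1.79. Flt3 held 0.114 to 0.375 CPM and Clec9a 0.118 to 1.04 CPM in IgG1, so their lowest values also lay near the level of 3 reads. With 1 library left out, Clec9a, Flt3, Cd209a and Itgax lost their calls without IgG1 library 2, 4 or 5 or 3P10 library 1, 3 or 4 (adjusted p up to 0.0772, 0.0765, 0.119 and 0.117), and Cd209a and Itgax also without one or more of IgG1 library 1 and 3P10 library 2 and NTB library 1, 2, 3, 4 and 5.

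Genes that break down branched-chain amino acids differed in part: of 20 tested 5 fell, 0 rose and 15 did not pass, against 3.46% lower among all genes, with a median of -0.53. Without IgG1 replicates 2 and 4 the median was -0.22 and 0 passed by edgeR (Bcat2 at an adjusted p of 0.0543). Bcat2, the first enzyme of the path, stood at 237 to 446 CPM in IgG1, 75.3 to 163 CPM in 3P10 and 133 to 166 CPM in NTB, without overlap between the antibodies, and fell by 1.33 (adjusted p = 0.00602 by edgeR). Bckdha, a subunit of the next enzyme complex, fell by 0.99, Hibch by 0.73, Aldh6a1 by 0.68 and Acadsb by 0.47, but Bckdha, Hibch, Aldh6a1 and Acadsb lost their calls without IgG1 library 2 or 3P10 library 3 (adjusted p up to 0.0832, 0.0756, 0.0507 and 0.118), and Bckdha, Hibch and Acadsb also without one or more of IgG1 library 4 and 5 and 3P10 library 1 and 2 and NTB library 1, 2, 3 and 5. Retsat, at 149 to 258 CPM in IgG1 and 66.8 to 115 CPM in 3P10, fell by 1.23 (adjusted p = 0.00602). The calls of Bcat2 and Retsat held with any 1 library left out. Of 12 heat shock genes 2 rose, against 3.96% higher among all genes, with a median of 0.32, or 0.35 without IgG1 replicates 2 and 4. The risen genes Hsph1 and Hsp90aa1, both chaperone genes, gave 0.97 and 0.73 and kept their calls with any 1 library left out. Neither passed by edgeR without IgG1 replicates 2 and 4 (adjusted p = 0.104 and 0.0863).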
